A study of Mus musculus with 6 samples.

Results

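Aminoacyl-tRNA synthetases, the enzymes that join each amino acid to its tRNA, were followed in mouse fibrosarcoma cells, a malignant tumor of fibroblast-like cells, after knockdown of Rras2, a RAS-related GTPase. The synthetases were found by gene symbol (1 capital letter followed by ars, with or without 1 or 2, and Eprs, Farsa and Farsb), which gave 34 of the 19505 genes measured, 18 of them cytosolic and 16 mitochondrial. Each was measured by 1 probe set. The cytosolic alanyl and aspartyl enzymes (Aars and Dars) were not among these 34, so the 18 are not the full cytosolic set. Of synthetases outside the 34, Tarsl2 is given among the relatives below and others were not analysed here.

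The study compared 3 arrays labelled shRras2 (replicates 4 to 6), from cells given an shRNA vector directed at Rras2, with 3 arrays labelled pLKO (replicates 1 to 3), from the same cells given the pLKO vector. Both groups were of C57BL/6 strain and carried Rras2(Q72L), and both grew in the same medium with fetal bovine serum. A single shRNA (sh#89) in a single line stands for the knockdown, so effects of the shRNA on other targets cannot be told apart from the loss of Rras2. Whether the 3 arrays of a group stand for 3 cultures is not in the labels, so the p-values speak only to the scatter among these samples, and that scatter may be technical. Replicate numbers do not cross the groups, and any batch that follows them cannot be told apart from the knockdown.

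Synthetases fall into a pair of unrelated structural classes, I and II. In mammals most amino acids have a cytosolic enzyme and a separate mitochondrial one, both encoded in the nucleus, whereas Gars and Kars each give rise to both forms. Several cytosolic synthetases sit together in a large multi-synthetase complex held by the scaffold proteins Aimp1, Aimp2 and Eef1e1. Uncharged tRNA activates the kinase GCN2 (Eif2ak4), and the transcription factor ATF4, made in response, is known to induce many cytosolic synthetase genes. Growth signalling and MYC are also known to raise the protein synthesis machinery.

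The promoters of a few cytosolic members are shown first, since they hold the letters that these regulators are known to read. Sequences came from the RefSeq promoter table of GRCm38.p6, which held 25 of the 34 synthetases, and the table's windows of 300 bases (250 before the gene start, 50 from it) were searched. TGATGCAA, the composite element read by C/EBP and ATF factors, was sought on both strands, on the opposite strand as TTGCATCA. CACGTG, the E-box read by MYC and its relatives, is its own reverse complement. The motifs do not overlap in the windows shown. TGATGCAA was held by 3 of the 25 synthetases (Iars, Tars and Yars), against 1.03% of all 27025 genes in the table. CACGTG was held by 4 of the 25 (Farsb, Iars, Tars and Ears2), against 8.09% of all genes. Stretches of 110 bases, from 80 before the start to 30 from it, are printed 5′ to 3′ along the gene for the 4 cytosolic holders, with the motifs in capitals. They lie at chr13:49682050-49682159 (plus strand, Iars), chr15:11399629-11399738 (minus strand, Tars), chr4:129189823-129189932 (plus strand, Yars) and chr1:78488868-78488977 (minus strand, Farsb).
Iars: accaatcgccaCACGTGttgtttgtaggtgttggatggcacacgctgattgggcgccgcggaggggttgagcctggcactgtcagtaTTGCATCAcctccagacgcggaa
Tars: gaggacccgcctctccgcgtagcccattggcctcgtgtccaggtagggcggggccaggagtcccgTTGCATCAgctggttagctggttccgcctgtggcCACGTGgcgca
Yars: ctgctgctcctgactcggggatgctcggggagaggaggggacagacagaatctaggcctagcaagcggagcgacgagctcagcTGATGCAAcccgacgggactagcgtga
Farsb: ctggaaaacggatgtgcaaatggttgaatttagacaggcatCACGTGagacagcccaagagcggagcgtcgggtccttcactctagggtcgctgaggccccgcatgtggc
In Iars, Tars and Yars the composite element began 8 bases into the gene, 15 bases before its start and 4 bases into the gene. A match describes these letters only and was not tested as a site.

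Levels below are deposited log2 RMA signals, with means ± SD over 3 arrays, and differences are log2, shRras2 minus pLKO, ± SE from limma. Rras2 was 9.09, 9.69 and 9.21 on shRras2 replicates 4, 5 and 6, against 10.67, 10.75 and 10.82 on pLKO replicates 1, 2 and 3. Its difference was -1.41 ± 0.14 (limma adjusted p = 0.00163), the groups did not overlap, and the exact two-sided permutation test gave p = 0.1, the smallest possible with 3 arrays against 3. Replicate 5 kept the most Rras2 signal of the knockdown arrays. The array medians of all genes lay between 7.22 and 7.28. Of the fibroblast-like markers 5 of 9 measured had means above 7.92, the 95th percentile of the negative-control probe sets, among them Vim and Fn1. Their summed linear signal was 32061 to 32838 on the shRras2 arrays, against 28903 to 29518 on the pLKO arrays. Past the threshold 3 of the 9 rose (Col3a1, Pdgfrb and Dcn), beside 2.99% of all genes. Both Dcn means lay below 7.92. Differences were above 0 for 6 of the 9 and below 0 for 3, among these Vim (-0.05). Of the 10 epithelial, immune and endothelial markers measured, 0 lay above 7.92. The skeletal muscle markers moved with the knockdown: 6 of 7 rose, beside the same 2.99% of all genes. The summed linear signal of these markers was 4630 to 7968 on the shRras2 arrays, against 962 to 1219 on the pLKO arrays. The part of these shifts in the synthetase values was not tested, and in such bulk RNA fewer cells of a type and less RNA per cell cannot be told apart.

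No synthetase passed the threshold of 0.05 on the adjusted p. Most were slightly lower in the knockdown: the difference was below 0 for 29 of the 34, or 85.3%, against 53.2% of all genes. The median was -0.14 for the 34 synthetases, against -0.01 for all genes. Among genes with a mean above the negative-control percentile it was -0.16 for the 25 synthetases, against -0.02 for all 8131. Across all genes 5.21% passed, 2.22% lower and 2.99% higher, so 0 of 34 is not a count above that background. At an unadjusted p under 0.05 in limma there were 7 synthetases, all lower, or 20.6%. That count was 2 without shRras2 replicate 4, 4 without pLKO replicate 1, pLKO replicate 3 or shRras2 replicate 6, 6 without pLKO replicate 2 and 9 without shRras2 replicate 5, and it lay between 5 and 13 under the other settings. Other settings made up to 2 calls. Farsb passed when dim genes, those with means below the negative-control percentile, were left out (limma adjusted p = 0.0343). Of all genes kept there, 19.8% passed. Eprs and Kars passed with trend and robust variance settings (limma adjusted p = 0.0242 and 0.0445), where 9.78% of all genes passed. Neither count was above its background. For the unadjusted p, the share of all genes was 19.1% in either direction and 10.0% lower. Of the 25 synthetases above the negative-control percentile 6 (24.0%) were lower at that p, against 15.6% of the 8131 genes above it.

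The differences covered a narrow range. They ran from -0.31 (Nars2) to 0.21 (Wars2), the median SE was 0.09, and the smallest limma adjusted p was 0.141 (Farsb). The 95% interval excluded a 2-fold change in either direction for all 34, and a 1.5-fold change for 33, the exception being Nars2, whose interval ran from -0.59 to -0.04. Most genes gave such intervals: of all 19505, they excluded a 2-fold change for 19130 and a 1.5-fold change for 17625. All 3 shRras2 arrays lay below all 3 pLKO arrays for 16 synthetases (47.1%), against 13.9% of all genes. Those 16 were among the 25 above the negative-control percentile (64.0% of them), where the share of all genes was 22.7%. The reverse held for 1, Sars, against 11.6% of all genes. Synthetases are not independent of each other on the same arrays, and these shares are descriptions.

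**Figure D1:**
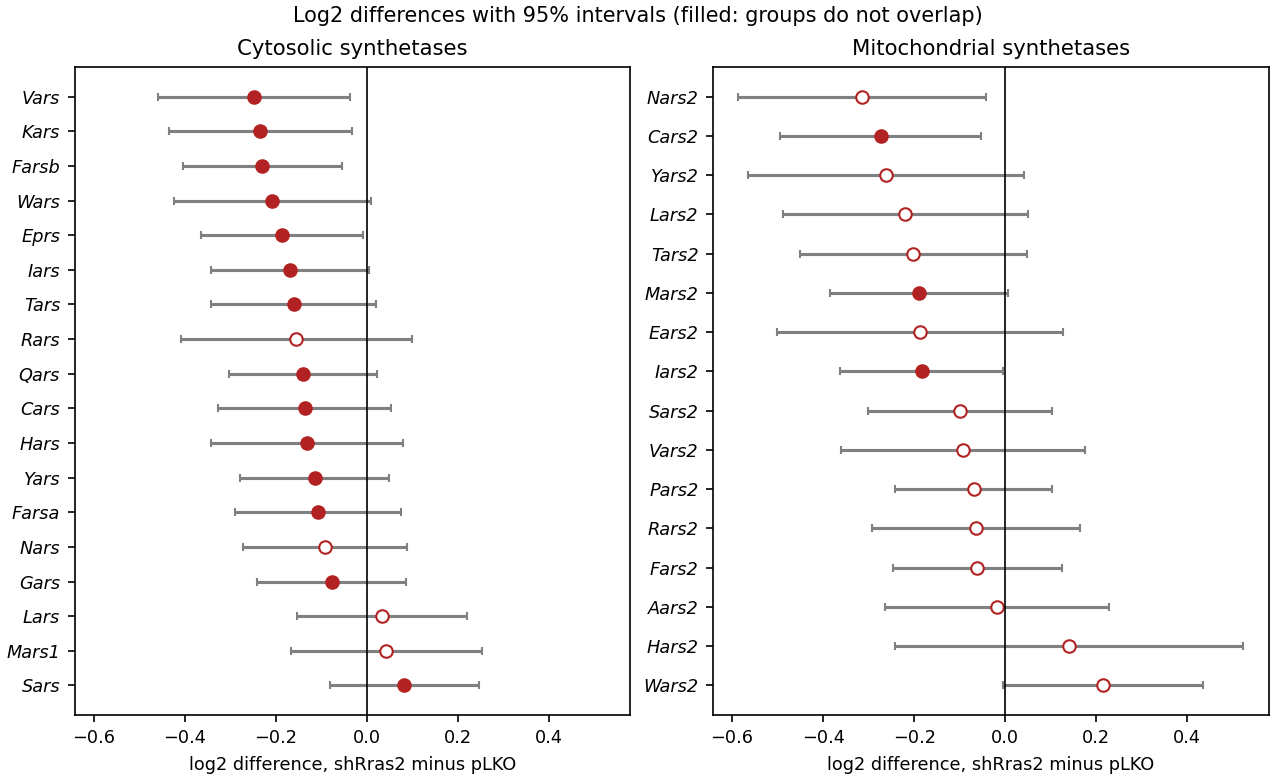
Log2 difference, shRras2 minus pLKO, for each of the 18 cytosolic (left) and 16 mitochondrial (right) synthetases on the horizontal axis, with 95% limma intervals over 3 arrays a group. Filled points mark genes whose groups did not overlap. Most points lie between -0.31 and 0, and 5 lie above 0.

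Among the 18 cytosolic synthetases the median difference was -0.14, 15 were below 0, and 13 (72.2%) had all shRras2 arrays below all pLKO arrays, against 22.7% of the 8131 genes that, like these 18, lay above the negative-control percentile. The 4 with the largest differences charge valine (Vars), lysine (Kars), phenylalanine (Farsb, the beta subunit of that enzyme) and tryptophan (Wars, known to be induced by interferon-gamma).

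Vars was 9.85, 9.94 and 9.78 on shRras2 replicates 4, 5 and 6, against 10.03, 10.02 and 10.26 on pLKO replicates 1, 2 and 3. The groups did not overlap, with pLKO replicate 3 the highest, and the difference was -0.25 ± 0.09 (limma adjusted p = 0.183). Kars was 10.50, 10.73 and 10.73 in the shRras2 group and 10.88, 10.85 and 10.93 in the pLKO group. Replicate 4 was the lowest, the groups did not overlap, and the difference was -0.23 ± 0.09 (limma adjusted p = 0.188). Farsb was 8.70, 8.78 and 8.83 in the shRras2 group and 9.02, 8.95 and 9.03 in the pLKO group. Both groups were tight and apart, with a difference of -0.23 ± 0.08 (limma adjusted p = 0.141), which left 85.2% of the pLKO signal (95% interval 75.5 to 96.2%). Its partner subunit Farsa differed by -0.11 ± 0.08 and also did not overlap. Wars was 10.50, 10.30 and 10.46 in the shRras2 group and 10.57, 10.54 and 10.78 in the pLKO group. The groups lay close, with 10.50 just below 10.54, and the difference was -0.21 ± 0.10 (limma adjusted p = 0.279).

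**Figure D2:**
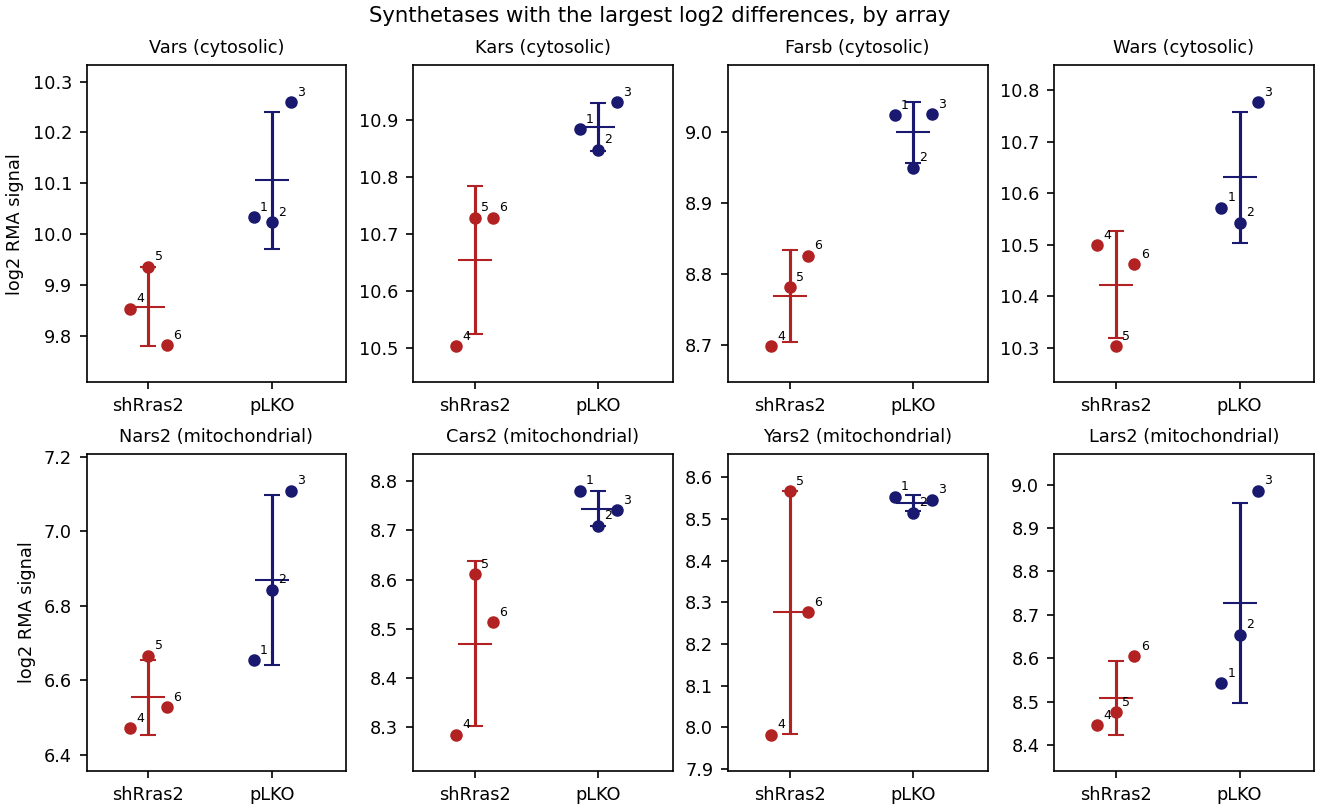
Log2 RMA signal (vertical axis, a scale of its own for each gene) of the 4 cytosolic (top) and 4 mitochondrial (bottom) synthetases with the largest differences, shRras2 arrays left of pLKO arrays. Points are arrays with their replicate numbers, and bars are means ± SD (n = 3 each). The groups do not overlap for Vars, Kars, Farsb, Wars and Cars2, and they overlap for Nars2, Yars2 and Lars2.

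Of the members of the multi-synthetase complex 7 were measured, with a median difference of -0.16, and 0 passed the threshold. Dars, also of the complex, was not among them. Eprs, the fused enzyme for glutamate and proline, differed by -0.19 ± 0.08, Iars by -0.17 ± 0.08, Rars by -0.16 ± 0.11 and Qars by -0.14 ± 0.07. Lars (0.03 ± 0.08) and Mars1 (0.04 ± 0.09), which charge leucine and methionine, had group means that nearly coincided. The 11 cytosolic synthetases outside the complex had a median of -0.13, and whether the complex differed from them was not tested. The scaffold genes went the same way and did not pass. Aimp1 differed by -0.12 ± 0.09, Aimp2 by -0.21 ± 0.09 and Eef1e1 by -0.22 ± 0.07 (limma adjusted p = 0.519, 0.247 and 0.143). At an unadjusted p under 0.05 in limma 2 of the 3 (66.7%) were lower, against 15.6% of the 8131 genes above the negative-control percentile. Eef1e1 was 11.16, 11.19 and 11.14 on the shRras2 arrays, against 11.33, 11.38 and 11.42 on the pLKO arrays, without overlap, and it passed with dim genes left out and with trend and robust variance settings (limma adjusted p = 0.033 and 0.0163).

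The other cytosolic members lay in the same narrow range. Tars differed by -0.16 ± 0.08, Cars by -0.14 ± 0.08, Hars by -0.13 ± 0.09, Yars by -0.12 ± 0.07, Nars by -0.09 ± 0.08 and Gars by -0.08 ± 0.07. Hars and Rars were lowest on shRras2 replicate 4: Hars was 10.10 there and 10.38 and 10.34 on replicates 5 and 6, against 10.38 to 10.43 on the pLKO arrays. Yars was steady within each group, at 11.20, 11.19 and 11.25 on the shRras2 arrays and 11.33, 11.32 and 11.33 on the pLKO arrays. Sars, the seryl enzyme, was the cytosolic gene that was higher on every shRras2 array, at 11.09, 11.14 and 11.15, against 11.04, 11.05 and 11.04 on the pLKO arrays, a difference of 0.08 ± 0.07 (limma adjusted p = 0.6). The holders of the composite element, Iars, Tars and Yars, had differences of -0.17, -0.16 and -0.12, inside the range of the other cytosolic genes. The holders of CACGTG, Farsb, Iars, Tars and the mitochondrial Ears2, had differences of -0.23, -0.17, -0.16 and -0.19, each inside the range of its compartment. Whether either motif goes with the differences was not tested.

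The 16 mitochondrial synthetases had the same median, -0.14, and 14 were below 0. All shRras2 arrays lay below all pLKO arrays for 3 (18.8%), Cars2, Mars2 and Iars2, against 13.9% of all genes. Those 3 were among the 7 mitochondrial genes above the negative-control percentile, where the share of all genes was 22.7%. The median of these 7 was -0.20. The other 9 genes (Aars2, Ears2, Fars2, Hars2, Nars2, Pars2, Rars2, Vars2 and Wars2) had both group means below 7.92, where signals are compressed and a change can be understated. All 18 cytosolic genes lay above that value. The median SE was 0.10 for mitochondrial and 0.08 for cytosolic genes.

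Nars2, the mitochondrial asparaginyl enzyme, was 6.47, 6.67 and 6.53 on shRras2 replicates 4, 5 and 6, against 6.65, 6.84 and 7.11 on pLKO replicates 1, 2 and 3. Its groups overlapped at replicates 5 and 1, the pLKO arrays spread widely, and the difference was -0.31 ± 0.12 (limma adjusted p = 0.191). Cars2, for cysteine, was 8.29, 8.61 and 8.51 in the shRras2 group and 8.78, 8.71 and 8.74 in the pLKO group. It did not overlap, and the difference was -0.27 ± 0.10 (limma adjusted p = 0.163). Yars2, for tyrosine, was 7.98, 8.57 and 8.28 in the shRras2 group and 8.55, 8.52 and 8.55 in the pLKO group. Replicate 5 sat above all 3 pLKO arrays and replicate 4 far below them, so its difference of -0.26 ± 0.13 rested on replicates 4 and 6 (limma adjusted p = 0.336). Lars2, for leucine, was 8.44, 8.48 and 8.60 in the shRras2 group and 8.54, 8.65 and 8.99 in the pLKO group. It overlapped, with pLKO replicate 3 apart from the rest, and the difference was -0.22 ± 0.12 (limma adjusted p = 0.366).

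Of the remaining mitochondrial genes, Tars2 (-0.20 ± 0.11), Mars2 (-0.19 ± 0.09), Ears2 (-0.19 ± 0.14) and Iars2 (-0.18 ± 0.08) were closest to these. Single arrays carried much of some of these values: Tars2 was -0.09 without pLKO replicate 1, and Ears2 was -0.06 without pLKO replicate 3 and -0.07 without shRras2 replicate 6. Without 1 array, 13 of the 16 mitochondrial and 8 of the 18 cytosolic differences came nearer 0 by more than 1.5 times or passed it. Iars2, well above background, was 10.57, 10.72 and 10.59 on the shRras2 arrays, against 10.78, 10.81 and 10.85 on the pLKO arrays, without overlap. Sars2, Vars2, Pars2, Rars2, Fars2 and Aars2 differed by -0.10 to -0.02. Hars2 and Wars2 were the mitochondrial genes above 0, at 0.14 ± 0.17 and 0.21 ± 0.10. Wars2 was 7.29, 7.34 and 7.53 on the shRras2 arrays, against 7.08, 7.13 and 7.30 on the pLKO arrays, and the groups overlapped at one pair of arrays.

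For 12 amino acids a cytosolic and a mitochondrial enzyme could be set side by side, and in 7 of the 12 both were below 0. For tryptophan Wars was at -0.21 and Wars2 at 0.21, a measured gap of -0.42. Both Wars2 means (7.39 in the shRras2 group and 7.17 in the pLKO group) lay below the negative-control percentile, so the size of that gap is uncertain. Serine ran the other way, with Sars at 0.08 and Sars2 at -0.10. For these 2 pairs the gap itself did not overlap between groups (exact two-sided permutation p = 0.1 each, the smallest possible, and 0.48 after Benjamini-Hochberg adjustment over the 12 pairs). With 3 arrays against 3 no pair could reach 0.05, so this test cannot decide whether any pair differed. Isoleucine showed nearly equal differences, -0.17 for Iars and -0.18 for Iars2. By structural class the medians were -0.16 for 18 class I genes and -0.10 for 15 class II genes, with Eprs holding both, and 0 of either class passed.

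**Figure D3:**
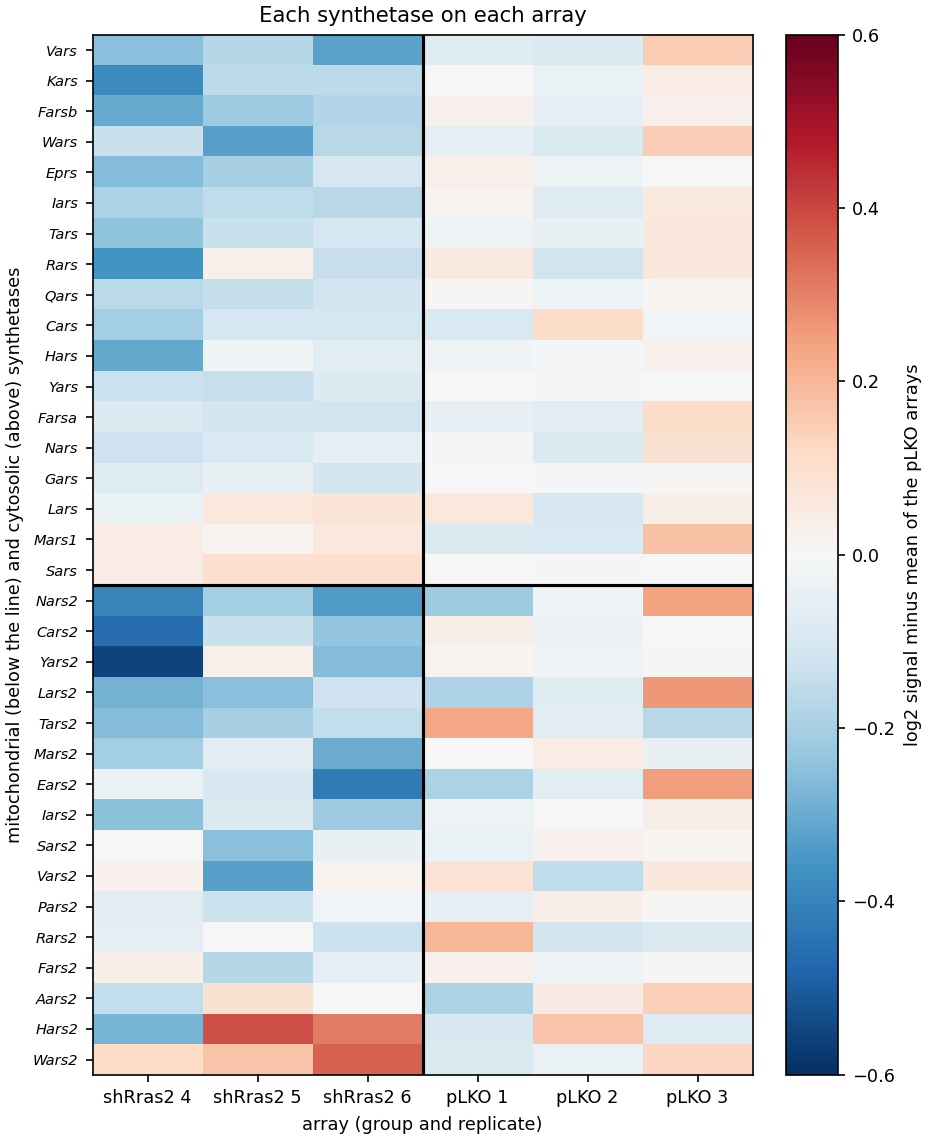
Log2 signal of each synthetase on each array minus its mean over the pLKO arrays (colour; blue is lower, red is higher), with the shRras2 arrays left of the pLKO arrays and cytosolic genes above the line. The shRras2 columns are mostly blue, most deeply on replicate 4, and Wars2, Sars and Mars1 are above 0 on all 3 of them.

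The shift was present on every knockdown array. The median of the 34 synthetases relative to their pLKO means was -0.18, -0.12 and -0.11 on shRras2 replicates 4, 5 and 6, against -0.00, -0.04 and 0.03 on pLKO replicates 1, 2 and 3. Replicate 4 was the lowest knockdown array for 21 of the 34 genes and replicates 5 and 6 for 7 and 6. Among the pLKO arrays, replicate 2 was the lowest for 15 of the 18 cytosolic genes. The median of all genes stayed at -0.01 on each knockdown array, while the skeletal muscle markers stood at 3.16, 2.32 and 2.85.

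Genes that act next to the synthetases were set beside them. In mammalian mitochondria glutaminyl-tRNA is made by charging with glutamate (Ears2) and then by an amidotransferase of the subunits Qrsl1, Gatb and Gatc. Of the 4 genes of mitochondrial tRNA charging 2 fell, 0 rose and 2 did not pass, where 2.22% of all genes fell past the threshold. Gatc was 10.73, 10.83 and 10.83 on the shRras2 arrays, against 11.36, 11.07 and 11.22 on the pLKO arrays, and fell by 0.42 on the log2 scale (SE 0.09, limma adjusted p = 0.038). Gatb was 6.78, 6.85 and 6.80 on the shRras2 arrays, against 7.14, 7.07 and 7.14 on the pLKO arrays, and fell by 0.31 (SE 0.07, limma adjusted p = 0.0494), with both means below the negative-control percentile. In the 6 refits that each left out an array, Gatb passed in 0 (largest limma adjusted p 0.16) and Gatc in 1, the one without pLKO replicate 2 (largest limma adjusted p 0.135). With the other settings Gatb passed in 5 of 8 and Gatc in 9 of 9. Qrsl1 (-0.09 ± 0.12) and Mtfmt, which formylates the initiator methionyl-tRNA (0.04 ± 0.08), did not pass.

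Charged tRNA is carried to the ribosome by Tufm in mitochondria and by Eef1a1 in the cytosol. Of the 4 genes on the mitochondrial elongation list 1 fell, beside 2.22% of all genes. Tufm, the mitochondrial EF-Tu, was 8.59, 8.71 and 8.61 on the shRras2 arrays, against 9.22, 9.23 and 9.47 on the pLKO arrays. It fell by 0.67 on the log2 scale (SE 0.09, limma adjusted p = 0.00573) to 62.9% of the pLKO signal (95% interval 54.3 to 72.8%), and passed in all 6 fits without 1 array. Its interval ran from -0.88 to -0.46, and it was not tested against the synthetases. Its exchange factor Tsfm (-0.30 ± 0.08, limma adjusted p = 0.0747), Gfm1 (-0.23 ± 0.10) and Gfm2 (-0.09 ± 0.08) did not pass. Tsfm did pass in 4 of 9 other settings (smallest limma adjusted p 0.0158). At an unadjusted p under 0.05 in limma 3 of the 4 genes (75%) were lower. The share was 15.6% among the 8131 genes that, like these 4, lay above the negative-control percentile. Of the 5 genes on the cytosolic elongation list 0 passed, and their median was -0.11. At an unadjusted p under 0.05 in limma 1 (20%) was lower, against the same 15.6%. Eef1a1, which delivers charged tRNA in the cytosol, differed by -0.04 ± 0.07, Eef1b2 by -0.15 ± 0.08 and Eef1d by -0.18 ± 0.08, which passed with trend and robust variance settings (limma adjusted p = 0.0469).

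Of 9 genes of tRNA export and end processing 1 fell, beside 2.22% of all genes. It was Pop1, a subunit of RNase P, which trims the 5′ end of tRNA. Pop1 was 8.83, 9.05 and 9.00 on the shRras2 arrays, against 9.38, 9.27 and 9.41 on the pLKO arrays, and fell by 0.39 (SE 0.09, limma adjusted p = 0.0377), passing in 1 of 6 refits that each left out an array (largest limma adjusted p 0.129). The tRNA exporter Xpot (-0.12 ± 0.09), the CCA-adding enzyme Trnt1 (-0.07 ± 0.12) and the 3′ nuclease gene Elac1 (0.27 ± 0.18) did not pass. Both Elac1 means lay below the negative-control percentile, and its difference was 0.03 without shRras2 replicate 4. The tRNA methyltransferase genes Nsun2 (-0.40 ± 0.10, limma adjusted p = 0.06) and Trmt1 (-0.33 ± 0.09, limma adjusted p = 0.076), named after their values were seen, came next to Pop1 and had groups that did not overlap. Of the 9 genes 3 (33.3%), Pop1, Nsun2 and Trmt1, were at an unadjusted p under 0.05 in limma, all lower, against 10.0% of all genes. Above the negative-control percentile, where 8 of the 9 lay, the share of all genes was 15.6%. The list's count of lower genes was 3 with dim genes left out, where 865 of all 8131 genes kept passed lower. It was also 3 with the 30% of genes of lowest mean left out (627 of 13653) and with trend and robust variance settings (943 of 19505). With array weights and without shRras2 replicate 5 it was 2 (555 and 452 of 19505), and it was 0 without any other single array. Among 5 relatives of the synthetases 0 passed. At an unadjusted p under 0.05 in limma 1 (20%) was lower, against 10.0% of all genes and 15.6% of those above that percentile, where 4 of the 5 lay. Tarsl2, a second cytosolic threonyl enzyme outside the symbol rule, was 8.02, 8.22 and 7.72 on the shRras2 arrays, against 8.27, 8.48 and 8.43 on the pLKO arrays, a difference of -0.41 ± 0.13 (limma adjusted p = 0.116). It passed with dim genes left out, with trend and robust variance settings and without shRras2 replicate 5 (limma adjusted p = 0.0391, 0.0392 and 0.0423). The D-aminoacyl-tRNA deacylase genes Dtd1 (0.16 ± 0.10) and Dtd2 (-0.11 ± 0.08) did not pass either.

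**Figure D4:**
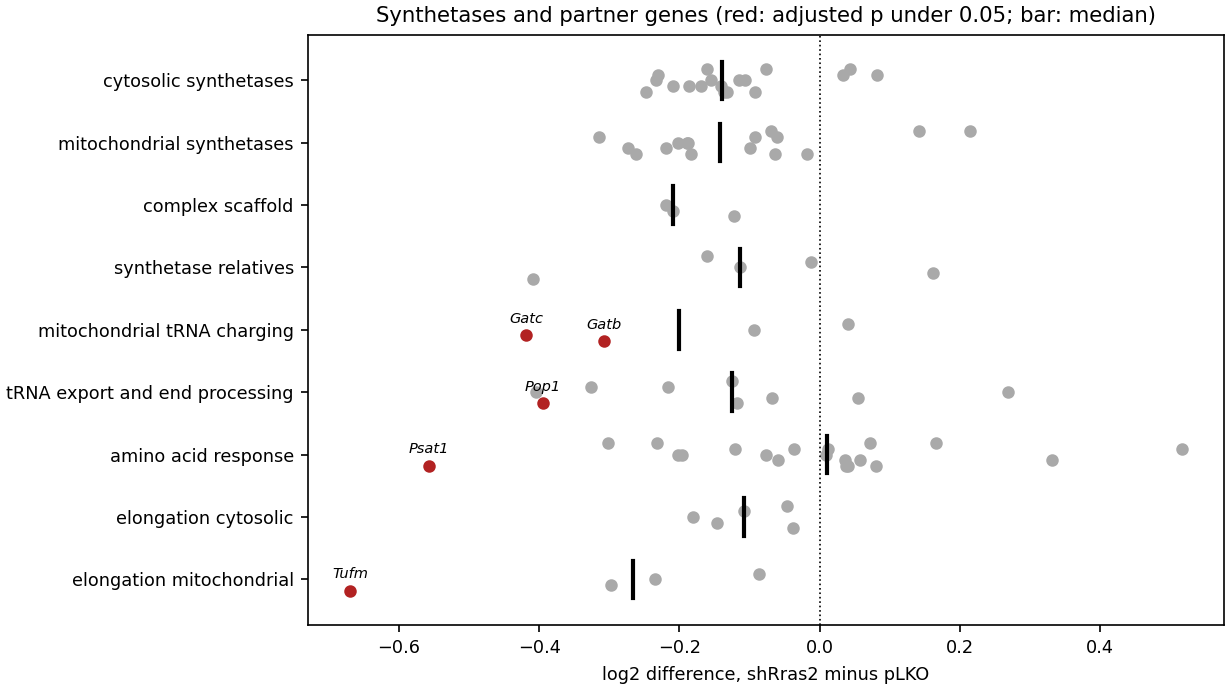
Log2 difference, shRras2 minus pLKO (horizontal axis), for cytosolic and mitochondrial synthetases and 7 lists of partner genes, 1 point a gene, with a bar at each median. Genes past the adjusted threshold are red and named. Both synthetase medians lie at -0.14, the amino acid response median at 0.01, and Tufm is the lowest point at -0.67.

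The amino acid response list had 20 genes on the arrays, of which 1 fell and 0 rose, a share near the 5.21% of all genes, with a median of 0.01. At an unadjusted p under 0.05 in limma there were 4 lower and 2 higher (30% of the list, against 19.1% of all genes). Of the list, 17 genes lay above the negative-control percentile, where the share of all genes was 28%. With dim genes left out, and with trend and robust variance settings, 4 fell and 1 rose, and without shRras2 replicate 5 the counts were 2 and 1. The share of all genes passing was 19.8%, 9.78% and 5.82% under these settings. Atf4 was 11.17, 11.16 and 11.14 on the shRras2 arrays, against 11.12, 11.02 and 11.09 on the pLKO arrays, a difference of 0.08 ± 0.07 (limma adjusted p = 0.622). Array signals are of RNA, and ATF4 is known to be controlled largely in translation. Ddit3, a stress factor downstream of it, differed by 0.33 ± 0.09 (limma adjusted p = 0.0874), and Asns, which makes asparagine, by -0.20 ± 0.07 (limma adjusted p = 0.172). Eif2ak4 differed by -0.30 ± 0.10 (limma adjusted p = 0.137). Ddit3, Asns and Eif2ak4 each passed in 2 of 9 other settings (smallest limma adjusted p 0.0233, 0.0182 and 0.0385), and Eif2ak4 also without shRras2 replicate 5 (limma adjusted p = 0.0409). The gene that fell was Psat1, of serine synthesis, at 11.46, 11.47 and 11.58 on the shRras2 arrays, against 11.97, 12.17 and 12.04 on the pLKO arrays (limma adjusted p = 0.00861). Myc was 10.92, 10.82 and 11.27 on the shRras2 arrays, against 11.29, 11.30 and 11.46 on the pLKO arrays. Its groups lay apart, with replicate 6 close to the pLKO arrays, and the difference of -0.34 ± 0.12 did not pass (limma adjusted p = 0.161), although it did with trend and robust variance settings (limma adjusted p = 0.0498).

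**Figure D5:**
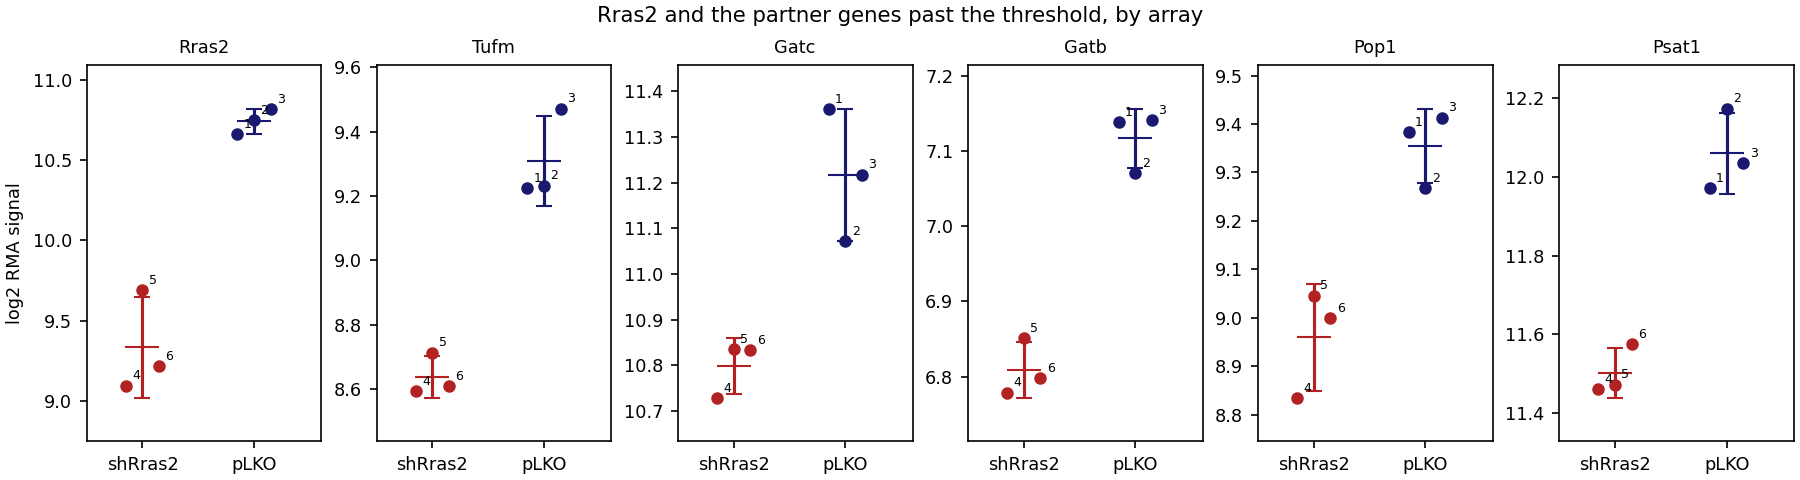
Log2 RMA signal (vertical axis, a scale of its own for each gene) of Rras2 and the 5 partner genes past the threshold, shRras2 arrays left of pLKO arrays. Points are arrays with replicate numbers, bars are means ± SD (n = 3 each), and the groups do not overlap in any of the 6 panels.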

How the data were processed

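Total RNA was hybridised to 6 Affymetrix mouse arrays, 1 per sample. Per the submitters' processing notes, the authors made the log2 values by RMA with R 3.6.3, which subtracts background, equalises quantiles between arrays and combines the probes of a set. The sources used here give neither the RMA version nor a genome build. Genes were named from the platform annotation, with the brightest probe set kept per symbol. The members, partner lists and tests were chosen with earlier results of these data known. All 19505 genes were fitted in limma 3.58.1 under R 4.3.3 (lmFit, then eBayes, shRras2 minus pLKO, two-sided, without covariates). The threshold was 0.05 after Benjamini-Hochberg adjustment over all genes. The number of arrays limits the precision; no detection calls were used, and the 95th percentile of 5222 negative-control probe sets, 7.92, marks dim signals. The fit was also run on simulated data. How often it would call differences as small as those of the synthetases is not reported here. Genes given per array are the 4 with the largest differences in each compartment, partner genes past the threshold, Rras2, Myc and Atf4, and others chosen after their values were seen (Eef1e1, Hars, Yars, Sars, Iars2, Wars2 and Tarsl2). Of each partner list, genes past the threshold and up to 3 others in list order are named, besides Eif2ak4, Nsun2 and Trmt1. The permutation test of the 12 pairs was added after the data were seen. The alternatives were other normalizations, filters on dim genes, probe set rules, variance models and leaving out each array.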

Additional observations from a re-analysis of the deposited data

How the results depend on the processing

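No paired analysis was possible because the groups share no replicate numbers. Of 297 synthetase values under 9 other settings 292 kept direction and side of the threshold. Direction could not turn under the probe set rules, the filters on dim genes or trend and robust eBayes. Those settings leave the difference of a gene with 1 probe set as it was, so only its side of the threshold could change. With genes below the negative-control percentile left out (25 synthetases, 8131 genes), 1 cytosolic synthetase was lower past the threshold, Farsb (limma adjusted p = 0.0343); with trend and robust eBayes 2 were, Eprs and Kars (limma adjusted p = 0.0242 and 0.0445). Mitochondrial synthetases passed under none of these 9 settings, and no synthetase passed without 1 array. All genes past the threshold numbered 1614 under that filter, 1908 with trend and robust eBayes, and 392 (without shRras2 replicate 4) to 1136 (without shRras2 replicate 5) with 1 array left out, against 1017; the others were 463, 589 and 427 without pLKO replicates 1, 2 and 3 and 431 without shRras2 replicate 6. Calls split into 584 higher and 433 lower, but 506 and 567 with arrays centred on their medians and 749 and 865 under that filter. Centring gave medians of -0.18 for cytosolic and -0.18 for mitochondrial synthetases, and the filter -0.20 for mitochondrial ones; without 1 array they ran from -0.16 to -0.11 and, with the end nearest 0 without pLKO replicate 3, from -0.168 to -0.0913. Signs turned for Lars on centring (-0.0077), where Mtfmt reached 0, and for Aars2 with array weights (0.0148). Without 1 array, Lars ranged from -0.0167 to 0.0702, Mars1 -0.0026 to 0.131, Aars2 -0.113 to 0.0541, Rars2 -0.121 to 0.0363, Vars2 -0.169 to 0.0247, Qrsl1 -0.194 to 0.019 and Trnt1 -0.151 to 0.0505. The cause of these turns was not tested. Signals near background limit what can be seen for the 9 dim mitochondrial genes.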
